A study of Homo sapiens with 12 samples.

Results

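The insulin-like growth factor (IGF) binding proteins IGFBP2 to IGFBP7, the protease PAPPA, its inhibitor STC1, the ligand IGF2 and the receptor IGF1R were followed after knockdown of OCT4 in H1, an established line of human embryonic stem cells. All probes that the array's annotation gives to these 10 genes were taken, 14 of the 48803 probes measured. Of these, 11 probes for 9 genes passed the detection filter described below, against 15407 probes for 10506 genes over the whole array. The 12 Illumina bead arrays formed 4 groups of 3: an shRNA against OCT4 and an shRNA against luciferase, each harvested 3 days and 2 days after a transient Fugene transfection. They are called knockdown and control here, and the stated purpose of the study was to find mRNAs that OCT4 acts on. The luciferase shRNA, whose target is a light-producing enzyme without a human counterpart, served as the negative control.

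Several features limit these groups as a model. The labels name 1 OCT4 shRNA and do not say whether transfected cells were selected. Each RNA sample pools many cells, in which fewer cells with a transcript and less of it per cell cannot be told apart. Nothing in the labels says that replicates were grown separately, and the p-values then reflect only how far these samples scatter, which may be technical scatter. Between 13343 and 14969 probes were detected per array, and the 3 arrays per group limit the precision. POU5F1, the gene of OCT4, had a normalised log2 intensity of 10.25 ± 0.29 in knockdown and 13.21 ± 0.11 in control at day 3 (SD, n = 3 each), which left 12.9% of the control level. At day 2 it was 10.69 ± 0.34 in knockdown and 12.92 ± 0.22 in control, which left 21.4%. Checked against markers of pluripotent stem cells, all 9 with a probe passed the detection filter.

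IGFs are secreted growth factors that act through the receptor tyrosine kinase IGF1R, and in human embryonic stem cell cultures this receptor is known to support survival and self-renewal. IGF binding proteins hold the ligands outside the cell, where they can withhold, store or deliver them. PAPPA is a secreted metalloprotease, known from placenta and from its use as a serum marker in pregnancy, which cleaves IGFBP4 and IGFBP5 and so frees IGF. Stanniocalcins such as STC1 bind PAPPA and block it.

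The promoters of 3 genes whose transcripts rose together are shown first, because PAPPA, IGFBP5 and IGFBP3 differ in base composition within the 250 bases before their start sites. The sequences are those of RefSeq in build GRCh38.p14, 5′ to 3′ on the strand of the gene, and RefSeq windows were matched for 7 of the 10 genes (all but IGFBP7, IGF2 and STC1). Capitals mark matches, on either strand, to TATAAA or GGGCGG, the letters of a TATA box and of a GC box. Only whole matches to these letters were counted, and none overlapped another.
PAPPA, chr9:116153541-116153790, plus strand: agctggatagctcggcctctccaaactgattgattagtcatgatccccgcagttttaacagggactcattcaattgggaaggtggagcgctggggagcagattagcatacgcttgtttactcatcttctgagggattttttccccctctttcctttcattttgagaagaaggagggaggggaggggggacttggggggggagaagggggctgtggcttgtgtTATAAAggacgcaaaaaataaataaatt
IGFBP5, chr2:216695550-216695799, minus strand: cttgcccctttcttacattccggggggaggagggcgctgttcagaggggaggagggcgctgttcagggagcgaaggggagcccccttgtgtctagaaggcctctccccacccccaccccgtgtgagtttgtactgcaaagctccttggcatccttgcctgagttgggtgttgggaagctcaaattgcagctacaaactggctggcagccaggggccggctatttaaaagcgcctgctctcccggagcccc
IGFBP3, chr7:45921273-45921522, minus strand: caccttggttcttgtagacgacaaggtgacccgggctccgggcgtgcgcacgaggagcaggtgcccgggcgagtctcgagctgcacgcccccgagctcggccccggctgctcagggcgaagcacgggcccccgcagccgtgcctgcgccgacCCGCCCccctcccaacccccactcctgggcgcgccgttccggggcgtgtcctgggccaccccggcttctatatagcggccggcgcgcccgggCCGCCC

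PAPPA had TATAAA at -28 relative to its start, a run of letters that 10.72% of all 35116 RefSeq windows of this length hold. IGFBP4 held the same letters at -29. IGFBP3 had GGGCGG at -98 and at -6, and so did windows of IGFBP2, IGFBP4, IGFBP6 and IGF1R at other places, as do 42.64% of all windows. Neither PAPPA nor IGFBP5 held it. The PAPPA window had 5 CpG dinucleotides and that of IGFBP5 had 8, both below the median of 11 over all windows, whereas that of IGFBP3 had 32. IGF1R, which did not pass the test on either day, had 48. ATGCAAAT, the octamer that OCT4 recognises, was searched on both strands and lay in none of the 9 windows of these genes, against 1.63% of all windows, which says only that these letters are not in these windows.

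Levels below are log2 intensities after background correction and quantile normalisation, and changes are knockdown minus control in log2. A probe was kept where its detection p was under 0.01 on at least 3 of the 12 arrays. Tests came from 1 limma fit over all arrays, and the threshold for a call was 0.05 on p-values adjusted by Benjamini-Hochberg over the 15407 kept probes. Genes are counted by their brightest kept probe, and probes of different genes are not set against each other.

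Secreted regulators of IGF rose in knockdown on both days, while the receptor IGF1R and 3 of the binding proteins did not pass. PAPPA, STC1, IGFBP3, IGFBP5 and IGFBP7 were higher at day 3, and the same 5 genes were higher at day 2. None was lower, and IGFBP2, IGFBP4, IGFBP6 and IGF1R did not pass on either day. That makes 5 of 9 measured genes called higher at day 3, where 14.1% of all genes were called higher, and 5 of 9 at day 2, where 5.45% were. The genes were chosen with earlier results of these data known, so these shares do not measure an excess. PAPPA entered the 9 only through its knockdown arrays, since 1 of 3 control arrays detected it on each day. With the replicate number as a block, IGFBP2 and IGFBP4 were also called higher at day 3, 7 of 9 beside 18.7% of all genes. The median change of the 9 genes was 3.08 at day 3 and 0.98 at day 2, beside medians of -0.07 and -0.04 over all 10506 genes. In each of the 5 genes every knockdown array lay above every control array of its day. Over all genes, this was so for 19.2% at day 3 and 12% at day 2.

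**Figure D1:**
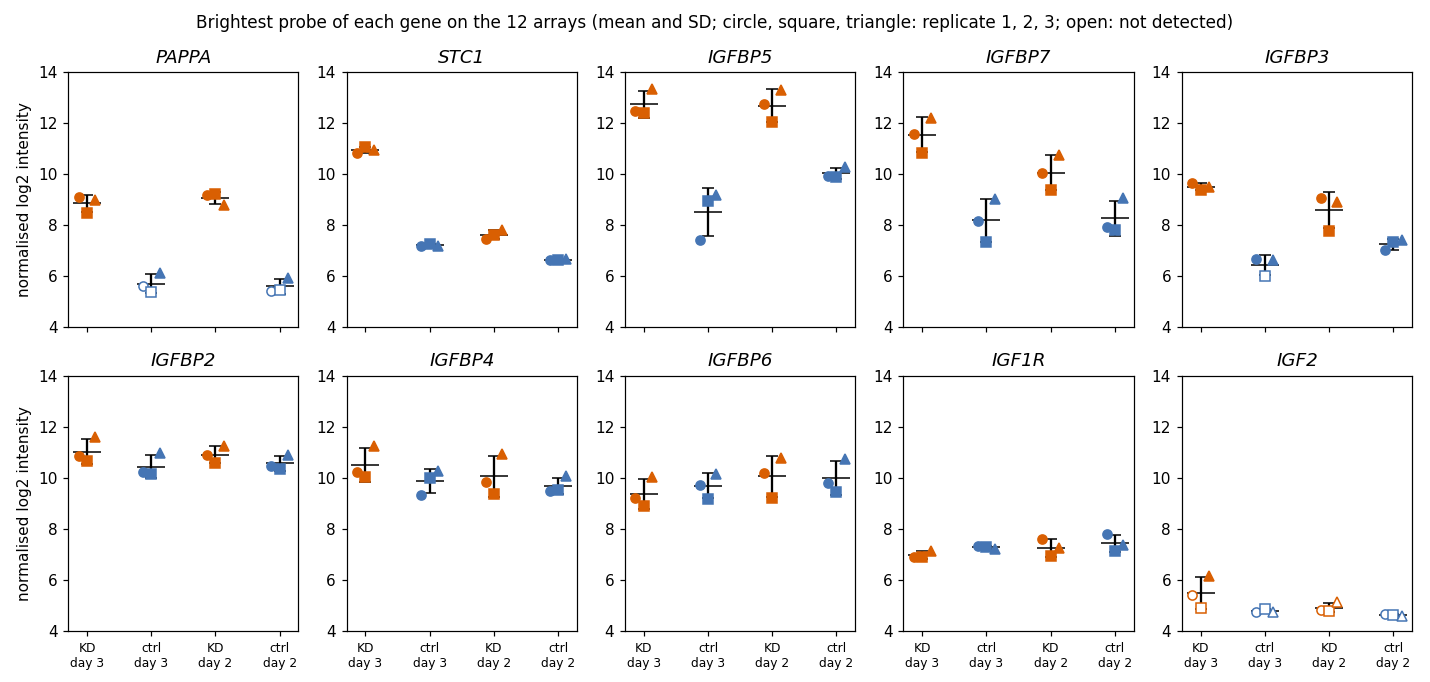
Normalised log2 intensity (vertical axis) of the brightest probe of each of the 10 genes on all 12 arrays, by group (KD, OCT4 shRNA; ctrl, luciferase shRNA), with bars for mean and SD of 3 arrays. Knockdown arrays stand clear of control arrays for PAPPA, STC1, IGFBP5, IGFBP7 and IGFBP3 on both days, and open symbols mark arrays on which the probe was not detected.

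PAPPA (probe ILMN_1721770, on chromosome 9) had log2 levels of 9.11, 8.49 and 8.97 on the knockdown arrays of day 3, against 5.62, 5.38 and 6.13 on the control arrays. At day 2 its levels were 9.17, 9.23 and 8.79 in knockdown, against 5.42, 5.45 and 5.93 in control. The protease transcript was thus detected on all 6 knockdown arrays, but on only 1 of 3 control arrays on each day, replicate 3 both times. The change was 3.15 at day 3 (SE 0.23, 8.88-fold, adjusted p = 3.14e-07) and 3.47 at day 2 (SE 0.23, 11-fold, adjusted p = 7.87e-07). The difference between these changes did not pass (-0.32, 95% interval -1.01 to 0.38, adjusted p = 0.835). The control signal was close to background, and the change was 2.41 at day 3 and 2.62 at day 2 under median scaling without background correction. The call held in all 20 alternatives at each day.

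STC1 (ILMN_1758164, on chromosome 8), the inhibitor of PAPPA, had levels of 10.81, 11.04 and 10.96 in knockdown at day 3, against 7.17, 7.26 and 7.19 in control. On the day 2 arrays it had 7.47, 7.60 and 7.82 in knockdown, against 6.63, 6.63 and 6.68 in control. All 4 groups stood apart, with knockdown at day 3 highest, then knockdown at day 2, control at day 3 and control at day 2. STC1 rose by 3.73 at day 3 (SE 0.13, 13.2-fold, adjusted p = 6.15e-10) and by 0.98 at day 2 (SE 0.13, 1.98-fold, adjusted p = 3.17e-04). The rise was larger at day 3 by 2.75 (SE 0.18, adjusted p = 6.1e-06), a difference called in all 19 alternatives that could be computed. Within knockdown STC1 was 3.30 higher at day 3 than at day 2 (SE 0.13, adjusted p = 1.03e-08), whereas the PAPPA levels of the 2 days overlapped there.

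IGFBP5 (ILMN_1750324, on chromosome 2), a substrate of PAPPA, had the largest fitted change among these genes at day 3. Its levels there were 12.48, 12.38 and 13.33 in knockdown, against 7.42, 8.96 and 9.17 in control. At day 2 they were 12.73, 12.03 and 13.29 in knockdown, against 9.92, 9.90 and 10.28 in control. The knockdown arrays of the 2 days overlapped, while all control arrays of day 3 lay below those of day 2. The change was 4.22 at day 3 (SE 0.42, 18.6-fold, adjusted p = 6.85e-06) and 2.65 at day 2 (SE 0.42, 6.28-fold, adjusted p = 0.00129). Another IGFBP5 probe, ILMN_2132982, gave 4.30 at day 3 (SE 0.26, adjusted p = 6.12e-08) and 2.88 at day 2 (SE 0.26, adjusted p = 9.54e-06). The difference between the days did not pass with either probe (1.57, adjusted p = 0.271, and 1.42, adjusted p = 0.0741).

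Within the control arrays alone, day 3 minus day 2 of IGFBP5 was -1.52 (SE 0.42), the lowest fitted value of that comparison among all 10506 genes. It did not pass (adjusted p = 0.179), nor did the other probe (-1.31, adjusted p = 0.0666). With the replicate number as a block, both passed (adjusted p = 0.0197 and 0.0145). The pairing by number is uncertain there, since replicates 1 and 2 each correlated better with another number between control days. Within knockdown the same comparison gave 0.05 (adjusted p = 0.966).

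IGFBP7 (ILMN_2062468, on chromosome 4), a secreted protein that binds IGFs only weakly and also binds insulin and matrix, had levels of 11.56, 10.83 and 12.20 in knockdown at day 3, against 8.17, 7.34 and 9.04 in control. At day 2 it had 10.05, 9.36 and 10.74 in knockdown, against 7.92, 7.82 and 9.05 in control. Replicate 3 was the highest array in every group, and knockdown and control did not overlap on either day. It rose by 3.34 at day 3 (SE 0.48, 10.2-fold, adjusted p = 1.59e-04) and by 1.78 at day 2 (SE 0.48, 3.44-fold, adjusted p = 0.0363). The day 2 call was lost in 7 of 20 alternatives, namely without a detection filter (adjusted p = 0.135) and without any 1 of 6 arrays (knockdown day 2 replicate 1 or 3, control day 2 replicate 1 or 2, knockdown day 3 replicate 1, control day 3 replicate 1; adjusted p = 0.0503 to 0.143). Within knockdown IGFBP7 was 1.48 higher at day 3 than at day 2 (adjusted p = 0.101, and adjusted p = 2.59e-05 with the replicate block).

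IGFBP3 (ILMN_1746085, on chromosome 7), the main IGF carrier of adult serum, had levels of 9.66, 9.39 and 9.48 in knockdown at day 3, against 6.67, 6.00 and 6.63 in control. The day 2 levels of IGFBP3 were 9.05, 7.78 and 8.92 in knockdown, against 7.02, 7.33 and 7.43 in control. The knockdown array of replicate 2 at day 2 lay close above the control arrays, and the control array of replicate 2 at day 3 was not above detection. IGFBP3 rose by 3.08 at day 3 (SE 0.29, 8.44-fold, adjusted p = 3.66e-06) and by 1.33 at day 2 (SE 0.29, 2.51-fold, adjusted p = 0.0111). Control at day 3 was close to background, and the day 3 change ran from 2.59 to 3.20 over the 20 alternatives. The day 2 call of this probe was lost without knockdown day 2 replicate 1 (adjusted p = 0.0609), knockdown day 2 replicate 3 (0.0502) or control day 2 replicate 1 (0.0591). Another IGFBP3 probe, ILMN_2396875, gave 2.69 at day 3 (SE 0.25, adjusted p = 3.35e-06) and 1.33 at day 2 (SE 0.25, adjusted p = 0.0042), and held its day 2 call in all 19 alternatives.

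The day 3 change of IGFBP3 exceeded that of day 2 by 1.75 (SE 0.40, adjusted p = 0.0416). This call was lost in 11 of 19 alternatives, 9 of them fits without 1 array (adjusted p = 0.0534 to 0.114 for control day 2, knockdown day 3 or control day 3 replicate 1, 2 or 3), and the other probe did not reach it (1.36, adjusted p = 0.0738). Day 3 minus day 2 was 0.93 within knockdown (adjusted p = 0.0865, and adjusted p = 0.0176 with the replicate block) and -0.82 within control (adjusted p = 0.305). With the other probe the knockdown difference was 0.96 and passed (adjusted p = 0.0402), in 9 of 19 alternatives.

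**Figure D2:**
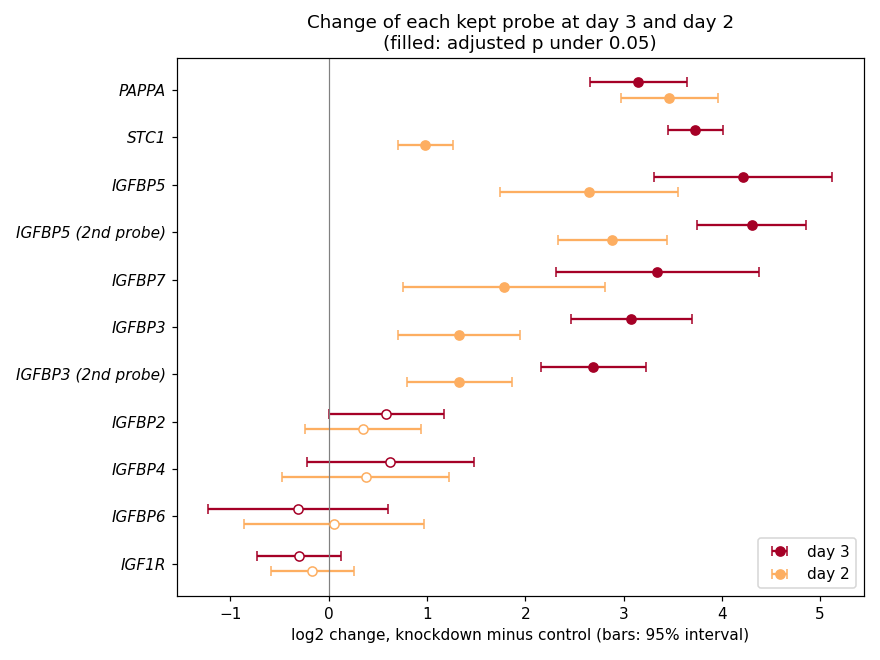
Change in knockdown minus control (log2, horizontal axis) of the 11 kept probes at day 3 and at day 2, with 95% intervals from the limma fit and filled points for an adjusted p under 0.05. STC1 lies at 3.73 at day 3 and 0.98 at day 2, whereas the PAPPA intervals of the 2 days overlap, and the intervals of IGFBP2, IGFBP4, IGFBP6 and IGF1R include 0 on both days.

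The remaining binding proteins were expressed on all 12 arrays and overlapped between knockdown and control. IGFBP2 (ILMN_1725193), next to IGFBP5 on chromosome 2 with no protein-coding gene between them, had 10.84, 10.67 and 11.58 in knockdown at day 3, against 10.22, 10.15 and 10.95 in control. At day 2 it had 10.90, 10.58 and 11.25 in knockdown, against 10.47, 10.34 and 10.87 in control. Its change was 0.59 at day 3 (SE 0.27, adjusted p = 0.133) and 0.35 at day 2 (SE 0.27, adjusted p = 0.561). Paired by replicate number, IGFBP2 was higher in knockdown in every pair at day 3, by 0.52 to 0.63. The day 3 change passed with the replicate block (adjusted p = 0.00183) and without control day 3 replicate 3 (0.84, adjusted p = 0.0382).

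IGFBP4 (ILMN_1665865, on chromosome 17), the best known substrate of PAPPA, had 10.22, 10.02 and 11.24 in knockdown at day 3, against 9.33, 10.01 and 10.26 in control. The day 2 levels of IGFBP4 were 9.84, 9.38 and 10.95 in knockdown, against 9.48, 9.51 and 10.05 in control. The groups overlapped on both days. Its change of 0.63 at day 3 (SE 0.39, 95% interval -0.22 to 1.47) did not pass (adjusted p = 0.272, and adjusted p = 0.0326 with the replicate block), and neither did 0.37 at day 2 (SE 0.39, adjusted p = 0.695).

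IGFBP6 (ILMN_1669362, on chromosome 12), which prefers IGF2 as its ligand, had 9.20, 8.89 and 10.02 in knockdown at day 3, against 9.72, 9.18 and 10.15 in control. The day 2 levels of IGFBP6 were 10.17, 9.20 and 10.79 in knockdown, against 9.81, 9.45 and 10.73 in control. The groups overlapped on both days, with changes of -0.31 at day 3 (adjusted p = 0.635) and 0.05 at day 2 (adjusted p = 0.968). Within knockdown day 3 minus day 2 was -0.68 for IGFBP6 (adjusted p = 0.446, and adjusted p = 0.00909 with the replicate block).

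IGF1R (ILMN_1675048, on chromosome 15) had 6.90, 6.88 and 7.14 in knockdown at day 3, against 7.33, 7.28 and 7.21 in control. On the day 2 arrays the receptor had 7.62, 6.92 and 7.25 in knockdown, against 7.81, 7.13 and 7.35 in control. The receptor was below every control array on the knockdown arrays of day 3, as were 23.8% of all genes, and the groups overlapped at day 2. Its change was -0.30 at day 3 (SE 0.20, 95% interval -0.73 to 0.12, adjusted p = 0.288) and -0.17 at day 2 (SE 0.20, 95% interval -0.59 to 0.26, adjusted p = 0.735).

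IGF2, the ligand, could not be tested, since none of its 3 probes on chromosome 11 passed the filter. The probe ILMN_2413956 was detected on 1 array, knockdown day 3 replicate 3, at 6.15. On the other knockdown arrays of day 3 it read 5.40 and 4.92, against 4.73, 4.86 and 4.73 in control. At day 2 it read 4.82, 4.80 and 5.14 in knockdown, against 4.65, 4.64 and 4.59 in control. Without a filter its day 3 change was 0.71 (adjusted p = 0.0995). The probes ILMN_1699867 and ILMN_2298035 were detected on 0 arrays and gave 0.46 (adjusted p = 0.0647) and 0.03 (adjusted p = 0.932) at day 3 in that fit. The 2 probes annotated to INS-IGF2, a readthrough transcript, were also detected on 0 arrays.

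The comparisons between days called fewer of the 9 measured genes. The difference between the day 3 and day 2 changes was called for 2 of them, STC1 and IGFBP3, both larger at day 3, beside 1.61% of all genes called in that direction. Within knockdown, 1 gene, STC1, was called higher at day 3 than at day 2, beside 3.76% of all genes. With the replicate block 4 were called, STC1, IGFBP3 and IGFBP7 higher and IGFBP6 lower, beside 13.7% of all genes called in either direction. Within control, limma called 0 of 9 genes between the days, beside 0.181% of all genes. At an unadjusted p under 0.05 there were 3 of 9, beside 10.6% of all genes at that threshold, and with the replicate block IGFBP5 and STC1 were called, beside 3.6% of all genes. STC1 in control was 0.56 higher at day 3 (adjusted p = 0.128, and adjusted p = 0.021 with the block). The pairing that the block assumes is uncertain between control days. Without regard to the test, STC1, IGFBP3 and IGFBP7 were higher on every knockdown array of day 3 than on any of day 2, 3 of 9 beside 10.3% of all genes. Within control, STC1 stood apart upward (8.03% of all genes did) and IGFBP3 and IGFBP5 downward (7.94% did). The comparisons between days share arrays with those of knockdown and control.

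Replicate 3 carried the highest level in all 4 groups for 5 of the 9 genes, IGFBP2, IGFBP4, IGFBP5, IGFBP6 and IGFBP7, by their brightest probes. With the IGFBP5 probe ILMN_2132982 it did so in 2 of 4 groups. Over all genes this was so for 1862 of 10506, or 17.7%. PAPPA and STC1 had it in 2 of 4 groups, and IGFBP3 and IGF1R in 1. No label says what a replicate number marks.

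**Figure D3:**
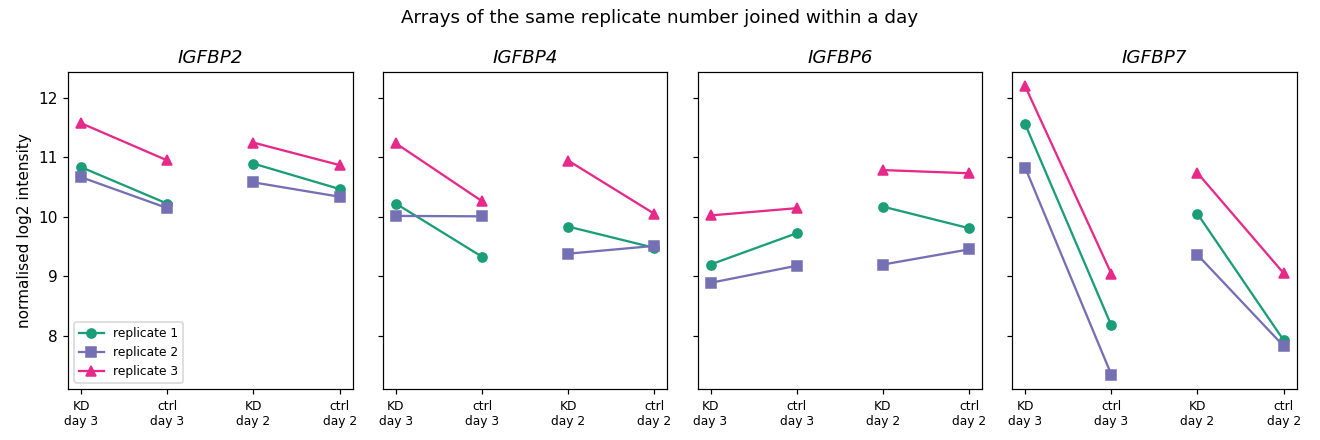
Normalised log2 intensity (vertical axis) of IGFBP2, IGFBP4, IGFBP6 and IGFBP7, with lines joining knockdown and control arrays of the same replicate number within a day. The lines at day 2 are for display only, since the numbers were not taken to pair those arrays. Replicate 3 is highest in every group, and the IGFBP2 lines run nearly parallel, with pair differences of 0.52 to 0.63 at day 3.

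Other genes of the IGF pathway were taken from 4 lists, with 63 genes on the array and 41 measured. At day 3, 11 of the 41 rose, beside 14.1% of all genes, and 2 fell, beside 14.9%, with a median change of 0.16. At day 2, 3 rose, beside 5.45%, and 1 fell, beside 2.69%, with a median of 0.10. The rises on both days include DLK1 and CCN3, which passed the detection filter only through their knockdown arrays.

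The IGF system list holds further ligands, receptors, binding proteins and proteases. Of its 13 genes, 9 were detected on 0 of 12 arrays, namely IGF1, INS, INSR, INSRR, IGFBP1, IGFALS, IGFBPL1, PAPPA2 and PRG2. Of the 4 measured, limma called 0 on either day, and 0 had an unadjusted p under 0.05, beside 39.3% of all genes at day 3 and 20% at day 2. STC2, the other stanniocalcin and also an inhibitor of PAPPA, averaged 10.33 in knockdown and 10.10 in control at day 3, and its change of 0.23 did not pass (adjusted p = 0.490). At day 2 STC2 gave 0.11 (adjusted p = 0.865), so STC1 was called and STC2 was not, although the difference between the genes was not tested. IGF2R, which takes up IGF2 for degradation, gave 0.28 at day 3 (adjusted p = 0.193) and 0.10 at day 2 (adjusted p = 0.799). HTRA1, a protease that also cleaves IGF binding proteins, gave 0.34 at day 3 (adjusted p = 0.342) and -0.31 at day 2 (adjusted p = 0.576). Within knockdown it was 0.99 higher at day 3 than at day 2 (adjusted p = 0.0331), a call kept in 14 of 20 alternatives. It was the 1 gene of the 41 called higher there, beside 3.76% of all genes. In the same comparison 1 was called lower, beside 1.65% of all genes. This was FOXO4 of the signalling list (-0.84, adjusted p = 0.0235, kept in 15 of 20 alternatives).

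Of the signalling list downstream of the receptor, 21 genes were measured. At day 3, 5 rose, beside 14.1% of all genes, and 1 fell, beside 14.9%. At day 2, 1 rose, beside 5.45%, and 1 fell, beside 2.69%. IRS2, an adaptor that docks to the activated receptor, had 9.48, 9.32 and 9.45 in knockdown at day 3, against 8.22, 8.77 and 8.90 in control. It rose by 0.79 at day 3 (adjusted p = 0.0146, called in 19 of 20 alternatives) and by 0.85 at day 2 (adjusted p = 0.0255, 15 of 20). INPPL1, a lipid phosphatase that acts on PI3K products, rose by 0.85 at day 3 (adjusted p = 0.00153), and the kinase AKT1 by 0.79 (adjusted p = 0.00287), both called in all 20 alternatives. FOXO1, a transcription factor that AKT restrains, fell by 0.41 at day 3 (adjusted p = 0.037) and by 0.52 at day 2 (adjusted p = 0.0281), each called in 14 of 20 alternatives.

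Of the list on regulation of IGF2 and imprinted growth genes, 11 of 15 were measured, and H19, PEG3 and MEG3 were detected on 0 arrays. At day 3, 2 rose, beside 14.1% of all genes, and 1 fell, beside 14.9%. At day 2, 1 rose, beside 5.45%, and 0 fell, beside 2.69%. On that day 2 of 11 had an unadjusted p under 0.05, beside 20% of all genes. DLK1, an imprinted growth regulator, had 7.06, 7.64 and 8.22 in knockdown at day 3, against 5.39, 5.12 and 5.81 in control, and was detected on 1 of 3 control arrays each day. It rose by 2.20 at day 3 (adjusted p = 5.41e-05) and by 1.57 at day 2 (adjusted p = 0.00271). DLK1 passed the detection filter only through its knockdown arrays, so its place among the rises is not independent of that filter. CDKN1C, an imprinted inhibitor of the cell cycle, rose by 1.14 at day 3 (adjusted p = 0.00107), whereas KCNQ1 from the same imprinted region fell by 0.54 (adjusted p = 0.0284, called in 14 of 20 alternatives).

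Of the list of proteins with a domain related to that of IGF binding proteins, 5 of 9 were measured. At day 3, 4 rose, beside 14.1% of all genes, and 0 fell, beside 14.9%. At day 2, 1 rose, beside 5.45%, and 0 fell, beside 2.69%. CCN1, a matrix-associated signalling protein, had 12.38, 12.03 and 12.54 in knockdown at day 3, against 10.73, 11.18 and 11.13 in control, a change of 1.30 (adjusted p = 8.45e-04). CRIM1, a membrane protein that binds BMPs, rose by 1.15 at day 3 (adjusted p = 0.00285). CCN3 was undetected on all control arrays and lay at least 1.04-fold higher at day 3 (adjusted p = 0.0021) and at least 1.19-fold higher at day 2 (adjusted p = 0.00714), when 2 of 3 knockdown arrays detected it. Only knockdown arrays carried CCN3 through the filter, so its place among the rises is not independent of that filter either.

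**Figure D4:**
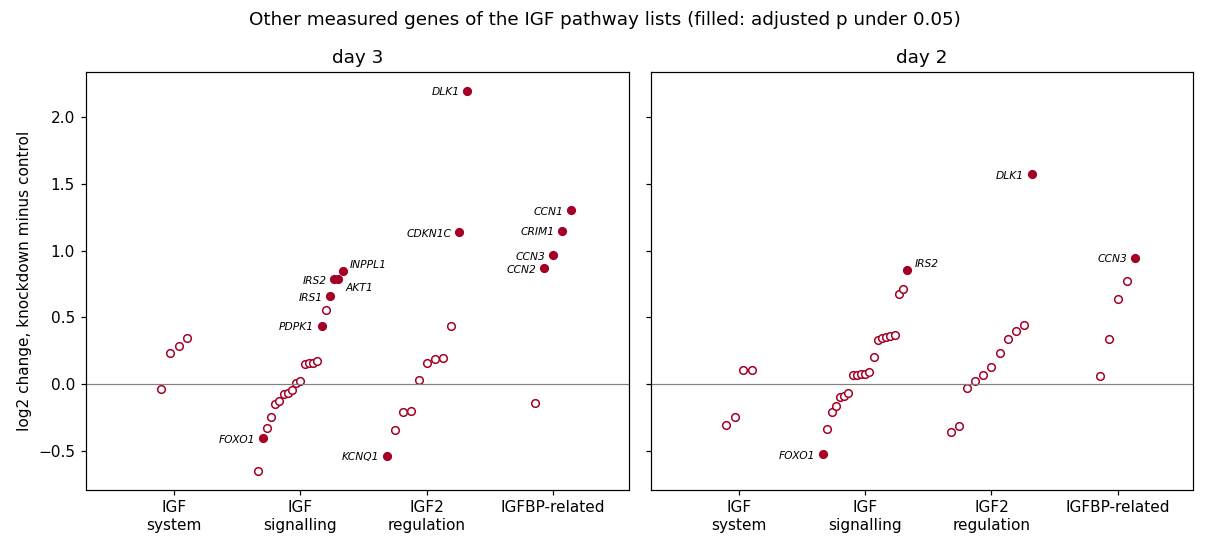
Change in knockdown minus control (log2, vertical axis) of the 41 measured genes of the 4 IGF pathway lists at day 3 (left) and day 2 (right), sorted within each list and filled for an adjusted p under 0.05. DLK1 is the highest point on both days, and the 4 measured genes of the IGF system list are all open.

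Markers of other cell types moved between the same groups. Over all genes, 14.1% were called higher and 14.9% lower at day 3, and 5.45% higher and 2.69% lower at day 2. All 6 measured endoderm markers rose on both days, with a summed intensity of 16347 to 20185 in knockdown against 715 to 1654 in control at day 3. Mesoderm and primitive streak markers had 7 rises and 1 fall of 8 at day 3, with sums of 7318 to 8668 in knockdown against 595 to 1439 in control. Stromal and fibroblast markers had 4 rises and 1 fall of 6 at day 3, with sums of 12553 to 19619 in knockdown against 7307 to 12438 in control. At day 2 they had 3 rises and 1 fall, and the sums overlapped, at 8738 to 14385 in knockdown against 8097 to 12497 in control. DCN, POSTN and FAP of that list were detected on 0 arrays and COL3A1 on 1. Amnion markers, a list that includes IGFBP3, had 2 rises and 2 falls of 4 at day 3. IGFBP3 itself was among the rises, so both falls lay among the other 3. Sums over those 3 were 905 to 1247 in knockdown against 638 to 719 in control, although 2 of them fell.

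Trophoblast markers matter here because PAPPA is made in quantity by that lineage. Of 12 such genes, CGA, PSG1, PSG3, GCM1, ERVW-1, HSD3B1 and CYP19A1 were detected on 0 of 12 arrays. Of the 4 measured, KRT7 and GATA3 rose at day 3, beside 14.1% of all genes. Summed intensities over the 4 measured genes were 350 to 697 in knockdown against 188 to 208 in control at day 3. At day 2, 1 of the 4 rose, beside 5.45% of all genes. The day 2 sums overlapped, at 275 to 548 in knockdown against 230 to 339 in control. Pluripotency markers had 8 falls and 0 rises of 9 at day 3, beside 14.9% of all genes called lower. Their sums were 29501 to 34383 in knockdown against 64615 to 66603 in control. POU5F1, which the shRNA targets, is among these 9 markers. Its fall was set by the design and counts in both the falls and the sums. The part of any of these cell types in the changes of PAPPA and the binding proteins was not tested.

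The genes whose levels followed PAPPA most closely over the 12 arrays were TMTC1 (Pearson r = 0.980), CYP24A1 (0.980), ADGRA2 (0.980), DKK1 (0.979) and DAB2 (0.975). For STC1 they were CAPN14 (0.990), SLC40A1 (0.990) and EGFLAM (0.987). IGFBP7 was followed by COL1A2 (0.988), KRT8 (0.981) and COL11A1 (0.978), IGFBP5 by FAM43A (0.980), FZD2 (0.980) and MGAT3 (0.979), and IGFBP3 by RBM24 (0.988), C1QTNF6 (0.986) and STX11 (0.983). The 12 points of each correlation share the arrays and the contrast of knockdown with control. Among the genes themselves, PAPPA went with IGFBP5 at 0.904, with IGFBP3 at 0.873 and with STC1 at 0.663, and IGFBP3 with IGFBP7 at 0.927.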

How the data were processed

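Per the file headers, the deposited intensities are not normalised, and they are linear. A deposited detection p-value goes with each. The scanner software is not given in the sources used here. The deposited table of the authors' log2 values equalled log2 intensity less 1 constant per array and 1 per probe (SD of the remainder 1.71e-07, column medians -0.0146 to 0.0136) and served as an alternative.

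The neqc function (limma 3.58.1, R 4.3.3) corrected background and normalised (detection p-values in place of control probes, offset 16, quantile normalisation, log2). Of 48803 probes, 15407 with detection p under 0.01 on at least 3 arrays were kept. Gene names came from GEO's array annotation, which names exactly 1 gene for 28098 probes, none for 20692 and several for 13. All 12 arrays entered 1 limma fit with 4 group means and no block (8 residual and 5.2 prior degrees of freedom). Every kept probe was tested two-sided, and the fit was tested on simulated data. A probe undetected on every array of 1 group has a lower bound, against the lowest detected signal per array (log2 5.69 to 6.16).

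The members, lists and markers were chosen with earlier results of these data known. All members are named. Of each pathway list, up to 3 called genes per direction and day are named, and by correlation 5 genes for PAPPA and 3 for other members called on both days. Of the pathway genes, 4 are not analysed here.

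Replicate numbers come from the sample titles. Deviations of same-numbered arrays from their group means correlated at 0.483, 0.389 and 0.738 between knockdown and control at day 3, at 0.22, 0.598 and 0.724 between knockdown days, and at 0.241, 0.214 and 0.666 between control days. All lay over 0.1, and on that cut alone the numbers were taken to pair these arrays. Another number correlated better for replicate 1 between knockdown days (0.283) and for replicates 1 and 2 between control days (0.317 and 0.289). Between knockdown and control at day 2 the values were 0.022, 0.398 and 0.701, and the numbers were not taken to pair those arrays. The pairing is thus uncertain. The main fit used no block, and the block alternative also covers day 2.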

Additional observations from a re-analysis of the deposited data

Results flagged for a closer look

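The effect of knockdown differed between the days for 2 of the 9 measured genes by the test of the difference itself. For STC1, the inhibitor of PAPPA, the change was 3.73 at day 3 and 0.98 at day 2, a difference of 2.75 that was called in all 19 alternatives. For IGFBP3 the change was 3.08 at day 3 and 1.33 at day 2, a difference of 1.75 that lost its call in 11 of 19 alternatives, 9 of them without 1 array. The other IGFBP3 probe did not pass (1.36, adjusted p = 0.0738). IGF2, which did not pass the detection filter, was detected by the probe ILMN_2413956 on a single array, knockdown day 3 replicate 3, at a log2 level of 6.15. The other knockdown arrays of day 3, both undetected, read 5.40 and 4.92, and the control arrays of day 3 read 4.73 to 4.86.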

How the results depend on the processing

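Altogether 20 alternatives were computed, 12 of them without 1 array (19 for the difference between days and for the additional probes). The authors' log2 values and median scaling without background correction called the same numbers of genes in every comparison. They differ by constants only and are in effect 1 setting, which each tally of alternatives includes under both names. No call changed direction. The number of the 9 genes called at day 3 was 5 and ran from 5 to 6 without 1 array, and at day 2 it was 5 and ran from 3 to 5, with 3 without knockdown day 2 replicate 1, knockdown day 2 replicate 3 or control day 2 replicate 1. For the difference between days it was 2, fell to 1 without a detection filter and with detection on at least 6 arrays, and ran from 1 to 2 without 1 array. Between the knockdown days it was 1, became 2 with the authors' log2 values (and so with the equivalent median scaling), and 4 with the replicate block, and stayed at 1 without any 1 array. Between the control days it was 0, became 2 with the replicate block and stayed at 0 without any 1 array. Among the IGF pathway genes 4 were called at day 2, 8 with the replicate block and 2 to 6 without 1 array, with 2 without knockdown day 2 replicate 1 or 3 or control day 2 replicate 2. At day 3 it was 13, and 9 to 14 without 1 array.

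Over all 10506 genes the replicate block called 4371 in place of 3042 at day 3, 1660 in place of 856 at day 2, 1439 in place of 568 between knockdown days and 378 in place of 19 between control days. For the difference between days it called 654, against 224 without it. At day 2 the numbers were not taken to pair arrays. The block added IGFBP7 to the difference between days (1.56, adjusted p = 5.97e-04). Without 1 array the count at day 2 was 557 (control day 2 replicate 1) and 568 (knockdown day 2 replicate 1), and for the difference it was 144 (knockdown day 3 replicate 1) and 148 (control day 2 replicate 1). Between knockdown days it was 352, 347 and 340 without knockdown day 2 replicate 1, knockdown day 3 replicate 1 or knockdown day 3 replicate 2, and 313 when only the arrays compared were fitted. Between control days it was 5, 10 and 6 without control day 2 replicate 1, 2 or 3, 10 and 9 without control day 3 replicate 1 or 2, and 38 without knockdown day 2 replicate 2. Without a detection filter the count between control days was 9, of 18852 genes then tested. The other alternatives moved these counts by less than 1.5 times. Of the results per probe, 1029 stayed on their side of the threshold, 31 lost a call and 19 gained one. The cause of these changes was not tested. PAPPA, IGF2 and DLK1 lay near background in control, and so did IGFBP3 in control at day 3, which limits the size of their changes.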
